A study of Mus musculus with 12 samples.

Results

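The synaptic vesicle release machinery was followed in the striatum of mice with a dopamine lesion on 1 side that had received L-DOPA. It was taken as 37 genes chosen by symbol, out of 52169 gene symbols in the deposited transcript table, and all 37 were found there, on 294 of 189660 transcripts. Each gene is represented by its transcript with the highest mean level over all libraries, and all 37 passed the filter on low counts in every comparison. The genes fall into 4 SNARE proteins (Snap25, Stx1a, Vamp1, Vamp2), 4 factors for SNARE disassembly and chaperones (Nsf, Napa, Dnajc5, Sncb), 3 complexins (Cplx1, Cplx2, Cplx3), 10 genes of the synaptotagmin and Doc2 families, most of which encode calcium sensors, 9 synapsins and vesicle membrane proteins, 6 proteins of the active zone and of docking and priming, and amphiphysin (Amph).

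The mice were C57BL/6J, and all had been given 6-OHDA into the medial forebrain bundle of the right hemisphere, after 25 mg/kg desipramine to spare noradrenergic neurons, with 2 weeks of recovery. L-DOPA (10 mg/kg) was given with benserazide (7.5 mg/kg), an inhibitor of its conversion outside the brain, either as 1 dose (acute L-DOPA) or daily for 9 days (chronic L-DOPA), and striatal punches were taken 1 hour after the last dose. RNA-seq libraries were made from the lesioned (right) and the unlesioned (left) striatum, 3 per group and 12 in all. Every group had L-DOPA, so an effect of the lesion alone and a response of the lesioned side to L-DOPA cannot be told apart. Chronic treatment also ended later after the lesion. Between treatments, the number of doses, that time and other differences between the mice cannot be told apart. The study's methods describe the mice as females and give their weight, not their age. Whether the 2 sides of 1 mouse share a replicate number is not said in the labels, which count 12 mice.

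Transmitter is stored in vesicles that dock at the active zone of the nerve terminal, where scaffold and priming proteins (Bassoon, Piccolo, RIM, Munc13 and ELKS) hold them close to calcium channels. The SNARE proteins of vesicle and plasma membrane zip together to fuse the membranes, complexins clamp and then promote this step, and synaptotagmins and Doc2 proteins bind the entering calcium. NSF with its adaptor alpha-SNAP (Napa) takes spent SNARE complexes apart, and synapsins tether the reserve vesicles. In the striatum most neurons are GABAergic medium spiny neurons, which release transmitter from their own collaterals and in the output nuclei, while glutamate terminals come from cortex and thalamus and dopamine terminals from the midbrain. The RNA of these proteins is made mainly in cell bodies, so a striatal punch holds little of the RNA of the incoming axons.

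The unit of level is CPM, the count of a transcript scaled by its library's TMM-normalized total, and 3 values in a row belong to libraries numbered 1, 2 and 3 of a group. Totals ran from 87695043 to 173116525 counts per library. No 2 replicates were copies, with a chi-square per degree of freedom of 5.41 or more within every group. The summed level of 10 medium spiny neuron markers was 2035 to 2744 CPM over the 12 libraries. Dopamine terminals could not be checked, since the dopamine transporter gene Slc6a3 lay at 0.01 to 0.06 CPM everywhere, and Th was 1.07 to 2.04 CPM in the other groups against 8.21 to 11.01 CPM in the chronic lesioned libraries. Some libraries stood apart in markers of other cells. Slc17a7, the vesicular glutamate transporter of cortical neurons, was 23.4, 10.6 and 10.1 CPM in the acute unlesioned, 12.2, 1.64 and 1.24 in the acute lesioned, 18.1, 4.00 and 32.7 in the chronic unlesioned and 17.8, 1.33 and 1.29 in the chronic lesioned libraries. It was thus high in number 1 of both lesioned groups and highest in chronic unlesioned number 3. Pvalb, a marker of fast-spiking interneurons, was 2.90, 14.4 and 3.16 and 1.94, 8.95 and 2.27 CPM on the chronic sides, with number 2 high on both.

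Per kilobase of transcript, Snap25 had the highest mean level over the 12 libraries (183 CPM per kb), followed by Vamp2 (87.04), Cplx2 (67.3) and Syp (59.5), and Cplx3 had the lowest (0.375). Among the synaptotagmins Syt1 (33.9 CPM per kb) and Syt11 (32.95) lay highest and close together, followed by Syt5 (18.6) and Syt4 (14.1), and Syt2 (2.40) and Syt10 (1.35) were lowest. Vamp2 exceeded Vamp1 (5.71 CPM per kb), and Doc2b (6.80) exceeded Doc2a (0.999). Among the synapsins Syn1 (15.8 CPM per kb) lay above Syn2 (13.9) and Syn3 (2.43), and Sv2a (17.3) above Sv2b (5.69) and Sv2c (5.12). Syngr1 (17.3 CPM per kb) and Syngr3 (13.7) were of similar size, as were Cplx2 and Cplx1 (50.6). The order of these family members by level is a description and was not tested.

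**Figure D1:**
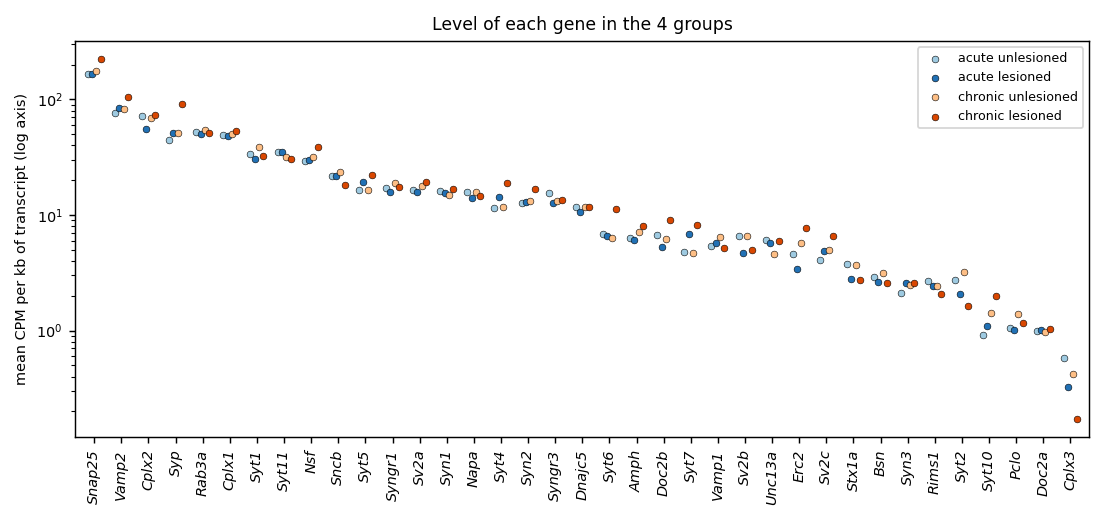
Mean level of each of the 37 genes in the 4 groups of 3 libraries, in CPM per kilobase of transcript on a log axis, ordered by the mean over all libraries. The levels span from Snap25 (183 CPM per kb) to Cplx3 (0.375), and chronic lesioned points stand above the others for Syp, Syt6, Syt7 and Erc2 and below for Syt2.

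With acute L-DOPA, the lesioned striatum had 5 of the 37 genes above and 7 below the unlesioned level at an adjusted p under 0.05 (edgeR quasi-likelihood fit, Benjamini-Hochberg over every transcript tested). A gene is said to be called or not called by this fit on all libraries of the groups compared, unless another fit is named. The called share of 32.4% stands beside 12.9% of all 129674 transcripts tested and 19.9% of 12795 genes, 1 transcript each, with at least 1 CPM on average (9.41% of these genes higher, 10.5% lower). The genes that rose were Syt7, Syt4, Syn3, Sv2c and Syp, and those that fell were Sv2b, Erc2, Stx1a, Syt2, Cplx2, Doc2b and Syngr3. All 12 changes were smaller than 1.5 fold. Without acute unlesioned number 2, where 8.12% of all transcripts were called, only Syt7 of the 5 rises was called, and over the fits that each leave out 1 library 1 to 5 genes were higher and 6 to 9 lower. Without acute lesioned number 1, which had the high Slc17a7 level, 5 were higher and 9 lower (10.7% of all transcripts called). The block for the replicate number added Syt5 above and Napa and Cplx3 below, with 21.8% of all transcripts called. Markers of neurons moved in this comparison too, with 4 of the 10 medium spiny neuron markers called higher and 4 lower. The cortical marker sum was 19.7 to 39.2 CPM in the unlesioned and 10.3 to 24.8 CPM in the lesioned libraries and was lower on the lesioned side in each pair of equal number, with 1 of 11 markers called higher and 1 lower. Markers of glia also moved, with 2 of 6 microglial, 2 of 6 astrocyte and 1 of 7 oligodendrocyte markers called higher and none lower. The microglial sum was 57.4 to 59.7 CPM in the unlesioned and 62.9 to 74.7 CPM in the lesioned libraries, without overlap, and the astrocyte sum was 514 to 568 and 567 to 729 CPM. With the oligodendrocyte markers as a covariate, an alternative chosen after seeing the data, the calls of Syt4, Sv2c and Syngr3 were lost and Syt5 was called higher and Rims1, Bsn and Cplx3 lower. The part of these cells was not tested. The median over the 37 genes was -0.04 on the log2 scale and that of the genes with at least 1 CPM was -0.01.

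After chronic L-DOPA the fit without a block for the replicate number called 10 genes higher and 1 lower. The higher genes were Syt6, Syp, Syt7, Syt4, Doc2b, Syt5, Syn2, Snap25, Vamp2 and Nsf, and the lower one was Syt2. Their share of 29.7% stands beside 12.0% of all transcripts tested and 17.3% of genes with at least 1 CPM, of which 10.4% were higher and 6.88% lower. In this comparison 4 of the genes were at least 1.5 fold higher (Syp, Syt4, Syt6 and Syt7) and 1 at least 1.5 fold lower (Syt2), beside 5.22% and 2.23% of genes with at least 1 CPM. The median of the 37 was 0.08 on the log2 scale, against -0.02 for genes with at least 1 CPM. With the replicate number as a block, which pairs the 2 sides, 14 were higher and 9 lower, beside 21.6% of all transcripts called, and all 11 of the former calls were among them. Between the chronic sides 2 of the 10 medium spiny neuron markers were called higher and 1 lower and 1 of 6 astrocyte markers higher, and the astrocyte sum was 506 to 602 CPM in the unlesioned and 610.4 to 638 CPM in the lesioned libraries, without overlap. The part of these cells was not tested. Without chronic lesioned number 1 there were 6 higher and 2 lower (7.73% of all transcripts called), and without chronic unlesioned number 3 there were 10 higher and 1 lower (7.1% of all transcripts called), with Snap25, Vamp2 and Nsf lost and Syt10, Sv2c and Unc13a added.

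Between the treatments within the lesioned striatum, 15 genes were higher after chronic than after acute L-DOPA and 1 was lower, 43.2% of the 37, beside 23.3% of all transcripts tested and 31.5% of genes with at least 1 CPM. Of those genes, 16% were higher and 15.5% lower. Without chronic lesioned number 2 there were 16 higher and 4 lower (28.3% of all transcripts called). All 7 oligodendrocyte markers were called lower in this contrast, and most of the 15 rises were not called with these as a covariate, as given below. In the unlesioned striatum edgeR called none of the 37 between the treatments (2.61% of all transcripts, 3.95% of genes with at least 1 CPM, 1.31% higher and 2.65% lower). There 13 had an unadjusted p under 0.05. DESeq2 called 2 higher and 1 lower, with no share over all transcripts to set beside these. Without chronic unlesioned number 2, which had the high Pvalb level, edgeR called 6 higher and 1 lower, and 11% of all transcripts. In all, 21 genes were called in at least 1 of the 5 comparisons and 16 in none, beside 47.2% of genes with at least 1 CPM called in at least 1. Acute and chronic lesion effects come from separate libraries. Of the 37 genes, 3 were higher on the lesioned side in both (Syp, Syt4, Syt7), beside 3.65% of genes with at least 1 CPM, Syt2 was lower in both (3.09% of such genes), Doc2b was lower after acute and higher after chronic L-DOPA, and 19 were called in neither. Bulk tissue was measured, so fewer cells of a type and less RNA per cell cannot be told apart in any of these changes.

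**Figure D2:**
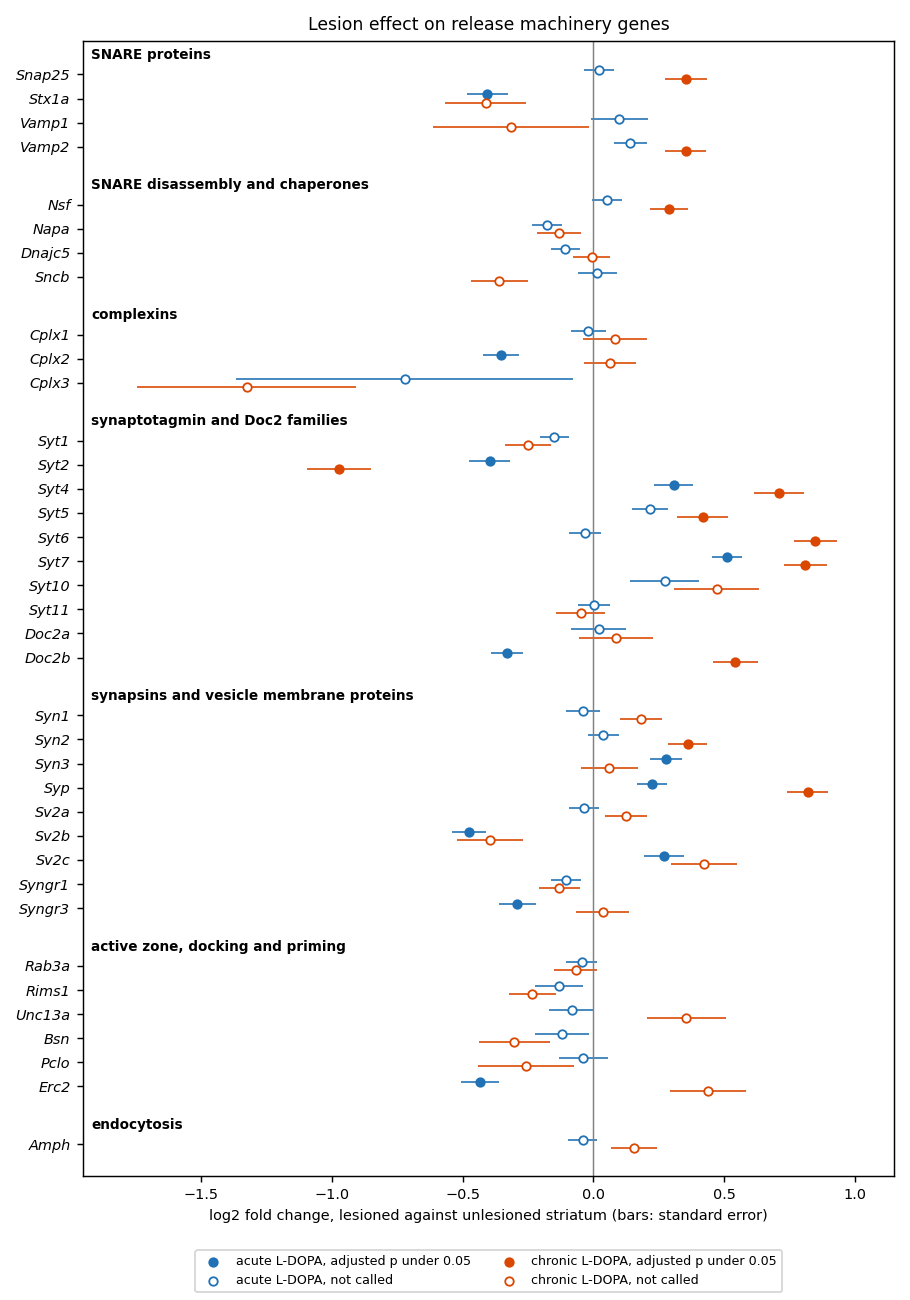
Lesion effect on each of the 37 genes after acute (blue) and chronic (orange) L-DOPA, as the log2 fold change of lesioned against unlesioned striatum with its standard error, 3 libraries per group. Filled points passed an adjusted p of 0.05. The chronic points of Syt6, Syp, Syt7 and Syt4 lie farthest to the right, that of Syt2 is the filled point farthest to the left, and Doc2b has filled points on both sides of 0.

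The sequence before the start site is shown for 3 of the genes with the largest changes, for which the RefSeq promoter table (build GRCm38.p6) holds a window. Of the 37 genes, 27 matched that table. Each sequence gives the 250 bases before the start on the gene's strand, and capitals mark a match to the AP-1 motif TGANTCA, bound by Fos and Jun proteins.

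Syp, chrX:7638330-7638579, plus strand: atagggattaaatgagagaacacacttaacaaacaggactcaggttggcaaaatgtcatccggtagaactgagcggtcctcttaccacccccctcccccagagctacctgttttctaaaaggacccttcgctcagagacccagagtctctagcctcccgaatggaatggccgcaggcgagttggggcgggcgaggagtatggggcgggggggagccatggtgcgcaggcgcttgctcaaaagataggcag

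Erc2, chr14:27622157-27622406, plus strand: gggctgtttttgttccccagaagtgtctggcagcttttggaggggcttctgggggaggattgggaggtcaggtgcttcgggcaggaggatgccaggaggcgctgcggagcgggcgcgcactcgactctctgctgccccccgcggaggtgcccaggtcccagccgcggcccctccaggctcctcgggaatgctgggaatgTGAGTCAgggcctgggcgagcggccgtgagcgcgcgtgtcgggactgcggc

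Syt2, chr1:134709050-134709299, plus strand: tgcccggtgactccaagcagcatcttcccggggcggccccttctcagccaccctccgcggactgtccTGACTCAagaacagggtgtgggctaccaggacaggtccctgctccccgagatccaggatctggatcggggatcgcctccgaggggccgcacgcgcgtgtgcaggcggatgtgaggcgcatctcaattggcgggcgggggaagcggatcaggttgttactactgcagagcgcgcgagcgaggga

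In windows of 250 bases before to 50 after the start, searched on both strands, TGANTCA was found in 3 of the 36 windows of the 27 genes, beside 7.81% of all 32851 windows. The match began 51 bases before the start in Erc2 and 183 before it in Syt2. In Syt6 it lay just after the start, within the following 30 bases of the plus strand:

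Syt6, chr3:103576125-103576154: cggtctctctcTGACTCActcggactccgg

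The cAMP response element TGACGTCA was found in 1 window each of Napa and Syn1, and in 1.79% of all windows. The Egr motif GCGTGGGCG was found in Unc13a (0.612% of all windows) and 1 fixed form of the serum response element in none of the 27 (0.0639%). No 2 of these motifs overlap in letters at a match. A match is a description of the window and not a measured site.

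Among the SNARE proteins, Snap25 and Vamp2 rose after chronic L-DOPA and Stx1a fell after acute L-DOPA. Snap25, the SNARE protein of the plasma membrane, at chr2:136539186-136608164 of mm9, was 352, 342 and 353 CPM in the acute unlesioned and 358, 357 and 341 CPM in the acute lesioned libraries, which overlapped. It was 386, 372 and 361 CPM in the chronic unlesioned and 515, 448 and 467 CPM in the chronic lesioned libraries, all 3 of which exceeded every other library (log2 fold change 0.35, standard error 0.080, edgeR adjusted p = 0.0163). Without chronic lesioned number 1 or chronic unlesioned number 3 this call was lost, with log2 fold changes of 0.30 to 0.40 over the fits that each leave out 1 library. Chronic lesioned libraries also exceeded acute lesioned ones (log2 fold change 0.44, standard error 0.078, edgeR adjusted p = 0.0031).

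The vesicle SNARE gene Vamp2 was 185, 175 and 177 CPM in the chronic unlesioned and 244, 213 and 227 CPM in the chronic lesioned libraries (log2 fold change 0.35, standard error 0.079, edgeR adjusted p = 0.0159). The acute values were 162, 162 and 179 and 178, 189 and 183 CPM, which overlapped. Against acute lesioned striatum the chronic lesioned level was 1.24 times as high (log2 fold change 0.31, standard error 0.076, edgeR adjusted p = 0.0143). The chronic lesion call of Vamp2 was lost in 3 of the 6 fits that leave out 1 library, chronic unlesioned number 3, chronic lesioned number 1 or chronic lesioned number 3 (0.31 to 0.41 on the log2 scale over the 6), and the call between treatments without number 1 of either group (0.26 to 0.35). Stx1a, the syntaxin partner of Snap25, fell after acute L-DOPA, from 8.41, 7.47 and 8.47 to 6.43, 5.61 and 6.20 CPM with no overlap (log2 fold change -0.41, standard error 0.077, edgeR adjusted p = 0.0053). With all 12 libraries in the fit this call was lost (edgeR adjusted p = 0.0743). After chronic L-DOPA it was 7.47, 6.15 and 10.2 CPM on the unlesioned and 5.97, 5.68 and 6.23 on the lesioned side, a log2 fold change of -0.41 with an edgeR adjusted p of 0.12, and the block for the replicate number called it lower (edgeR adjusted p = 0.0203).

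Vamp1, the synaptobrevin enriched in fast-spiking and brainstem neurons, was called in no comparison. Its values were 15.5, 30.9 and 15.1 CPM in the chronic unlesioned and 12.7, 23.5 and 12.96 CPM in the chronic lesioned libraries, against 14.4 to 20.98 CPM in the acute ones. Number 2 was high on both chronic sides, as Pvalb was in the same libraries, and the part of these cells in the Vamp1 level was not tested. Within the pairs of equal number the chronic log2 ratios of Vamp1 were -0.29, -0.39 and -0.22, and the block called it lower (log2 fold change -0.30, standard error 0.064, edgeR adjusted p = 0.00583). Without number 2 of both chronic sides the effect was -0.25 and not called (edgeR adjusted p = 0.115), against -0.32 with them. Without number 2 of the unlesioned or the lesioned side alone it was 0.10 and -0.67, without chronic unlesioned number 3 it was -0.50, and with the oligodendrocyte covariate, chosen after seeing the data, it was 0.04 (-0.77 with the cortical one), none of them called.

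Of the genes for SNARE disassembly and chaperones, Nsf, the ATPase that separates spent SNARE complexes, rose on the lesioned side after chronic L-DOPA. It was 117, 124 and 120.0 CPM in the unlesioned and 152, 146 and 144 CPM in the lesioned libraries (log2 fold change 0.29, standard error 0.073, edgeR adjusted p = 0.0277), a call kept only without number 2 of either side among the 6 fits without 1 library (0.27 to 0.32). Acute values were 109, 109 and 112 and 109, 119 and 112 CPM, and the chronic lesioned libraries exceeded the acute lesioned ones by 0.38 on the log2 scale (edgeR adjusted p = 0.00463). Its adaptor Napa did not pass in any comparison, with 38.7, 39.2 and 41.7 CPM in the acute unlesioned and 33.96, 36.4 and 34.7 CPM in the acute lesioned libraries. The 2 groups did not overlap, the edgeR adjusted p was 0.0654, and 0.0288 with the block.

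The co-chaperone gene Dnajc5, which encodes cysteine string protein, ranged from 68.7 to 79.3 CPM in all 12 libraries and was not called. Sncb, beta-synuclein, was 27.9, 35.3 and 31.3 CPM in the chronic unlesioned and 22.1, 27.5 and 23.9 CPM in the chronic lesioned libraries, without overlap, at a log2 fold change of -0.36 and an edgeR adjusted p of 0.0593. With the block the edgeR adjusted p of Sncb was 0.00116. Its log2 ratios within the pairs, -0.34, -0.36 and -0.39, were close to each other.

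Of the complexins only Cplx2 was called, and differences between members were not tested. Cplx2, the complexin with the highest level per kilobase here, was 336, 335 and 385 CPM in the acute unlesioned and 273, 275 and 274 CPM in the acute lesioned libraries (log2 fold change -0.35, standard error 0.069, edgeR adjusted p = 0.0061). The lesioned values lay close together and under every unlesioned value. No fall was called after chronic L-DOPA, where Cplx2 was 326, 324 and 378 CPM and 347, 322 and 404 CPM, and chronic exceeded acute lesioned striatum (log2 fold change 0.38, standard error 0.088, edgeR adjusted p = 0.0108). Cplx1 ranged from 96.8 to 134 CPM, was highest in number 2 on both chronic sides, and was not called. Its chronic lesion effect was 0.08, and 0.19 without number 2 of both sides (edgeR adjusted p = 0.189).

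Cplx3, a complexin of ribbon synapses and of some deep cortical neurons, was close to the detection range with 2.73, 1.5 and 0.719, then 2.34, 0.231 and 0.232 CPM on the acute and 1.03, 1.32 and 1.27, then 0.799, 0.558 and 0.119 CPM on the chronic sides. The smallest of its counts was 13 reads. Its log2 fold changes were -0.72 (edgeR adjusted p = 0.503) and -1.33 (edgeR adjusted p = 0.0677), and with the block -0.93 and -1.41 (edgeR adjusted p = 0.0305 and 0.0134). Without acute lesioned number 1 the acute effect on Cplx3 was -2.84 and called (edgeR adjusted p = 0.00448), with the cortical covariate it was 0.62 and not called, and with the oligodendrocyte covariate it was -3.73 and called. In the acute lesioned group the value of number 1 stood above the others, as that of Slc17a7 did.

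Of the 10 genes of the synaptotagmin and Doc2 families, 5 were higher and 1 lower in the chronic lesion effect, beside 17.3% of genes with at least 1 CPM called. Syt7, a slow, high-affinity synaptotagmin that serves asynchronous release and vesicle replenishment, rose with both treatments. It was 33.9, 32.9 and 31.9 CPM in the acute unlesioned and 46.5, 45.7 and 47.5 CPM in the acute lesioned libraries (log2 fold change 0.51, standard error 0.056, edgeR adjusted p = 0.000111). The chronic values were 29.2, 32.7 and 34.8 CPM and 57.2, 56.8 and 55.4 CPM (log2 fold change 0.81, standard error 0.083, edgeR adjusted p = 0.000125), so the lesioned level was 1.41 and then 1.75 times the unlesioned one. Both groups of lesioned libraries were tight and lay above all unlesioned libraries, and both calls held in every fit that left out 1 library. The difference of the 2 lesion effects was 0.30 (standard error 0.093, edgeR adjusted p = 0.0833) and was not called, though the block called it (edgeR adjusted p = 0.0335). Chronic exceeded acute lesioned striatum (log2 fold change 0.28, standard error 0.068, edgeR adjusted p = 0.0147), a call lost without acute lesioned number 2 or chronic lesioned number 1 (0.27 to 0.30).

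Syt4, a synaptotagmin of dense-core vesicles that is induced by activity, was 48.8, 44.4 and 42.1 CPM and 59.01, 56.2 and 51.1 CPM on the acute unlesioned and lesioned sides (log2 fold change 0.31, standard error 0.073, edgeR adjusted p = 0.0184). After chronic L-DOPA it was 47.4, 44.4 and 44.5 and 77.8, 79.4 and 65.3 CPM (log2 fold change 0.71, standard error 0.095, edgeR adjusted p = 0.000774). Every lesioned library lay above every unlesioned one with both treatments. The acute call was lost without acute unlesioned number 2 or 3 or acute lesioned number 2 (0.26 to 0.37 over the 6 fits without 1 library), and the chronic call in none (0.66 to 0.80). The chronic lesioned libraries also lay above the acute lesioned ones (log2 fold change 0.42, standard error 0.094, edgeR adjusted p = 0.0094).

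Syt6 was called only in the comparisons that hold the chronic lesioned group. Its levels were 29.6, 28.9 and 32.04 CPM in the acute unlesioned, 29.8, 30.01 and 28.1 in the acute lesioned and 26.9, 27.1 and 29.3 in the chronic unlesioned libraries, and 50.9, 45.4 and 53.5 CPM in the chronic lesioned libraries. The 9 other libraries overlapped and all 3 chronic lesioned ones stood above them. The chronic lesion effect was 0.85 (standard error 0.083, edgeR adjusted p = 9e-05), and the difference from the acute lesion effect was 0.88 (standard error 0.10, edgeR adjusted p = 9.99e-05). Leaving out 1 library gave 0.81 to 0.92 for the chronic lesion effect.

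Syt2, the fast calcium sensor of hindbrain and fast-spiking neurons, went the other way. Markers of striatal interneurons moved beside it, with 2 of 6 called lower and 1 higher in the chronic lesion effect, 3 lower and 1 higher between the treatments in lesioned striatum and 2 with a smaller lesion effect after chronic treatment, and their part in the Syt2 values was not tested. Syt2 was 17.96, 17.8 and 20.5 CPM in the acute unlesioned and 14.6, 12.9 and 14.9 CPM in the acute lesioned libraries (log2 fold change -0.40, standard error 0.077, edgeR adjusted p = 0.00583). The chronic values were 19.9, 25.2 and 20.6 and 10.2, 12.9 and 10.3 CPM (log2 fold change -0.97, standard error 0.12, edgeR adjusted p = 0.000509), so the lesioned level was 0.753 and 0.508 times the unlesioned one. Within the chronic pairs of equal number the log2 ratios of Syt2 were -0.96, -0.97 and -0.996, nearly the same in all 3, including the pair with high Pvalb. The difference of the lesion effects was -0.57 (standard error 0.16, edgeR adjusted p = 0.0506), not called, and called lower with the block (edgeR adjusted p = 0.000424). Chronic lay under acute lesioned striatum (log2 fold change -0.34, standard error 0.11, edgeR adjusted p = 0.0377), a call kept only without chronic lesioned number 2 among the 6 fits without 1 library (-0.47 to -0.28).

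Syt5, a calcium-binding synaptotagmin of vesicle membranes, was 28.2 to 29.9 CPM in the acute unlesioned, 30.6 to 36.1 in the acute lesioned, 25.3 to 32.03 in the chronic unlesioned and 35.9 to 40.4 in the chronic lesioned libraries. Its chronic rise (log2 fold change 0.42, standard error 0.10, edgeR adjusted p = 0.02) was lost without number 1 of either chronic side or chronic lesioned number 3 (0.32 to 0.49), and the acute effect of 0.22 had an edgeR adjusted p of 0.0563, and 0.0134 with the block. Syt10, a sensor for growth factor exocytosis, was at 1.92, 1.92 and 2.17 CPM in the acute lesioned and 3.61, 3.30 and 4.00 CPM in the chronic lesioned libraries (log2 fold change 0.86, standard error 0.11, edgeR adjusted p = 0.000413). Unlesioned values of Syt10 were 1.44, 2.03 and 1.56 CPM after acute and 2.55, 2.00 and 3.30 CPM after chronic L-DOPA, which overlapped, with a log2 fold change of 0.66 (edgeR adjusted p = 0.071). Its lesion effects, 0.27 and 0.47, were not called, and the block called the chronic one (edgeR adjusted p = 0.0056).

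The main fast sensor of forebrain synapses, Syt1, had no call. It was 167, 160.0 and 164 CPM in the acute unlesioned and 145, 148 and 147 CPM in the acute lesioned libraries (edgeR adjusted p = 0.104), and 184, 173 and 202 and 169.8, 151 and 149 CPM on the chronic sides (edgeR adjusted p = 0.101). The lesioned values lay under the unlesioned ones with both treatments, and the block called the chronic fall of -0.25 (edgeR adjusted p = 0.0237). Syt11, a synaptotagmin that does not bind calcium, ranged from 139.7 to 183 CPM and was not called.

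**Figure D3:**
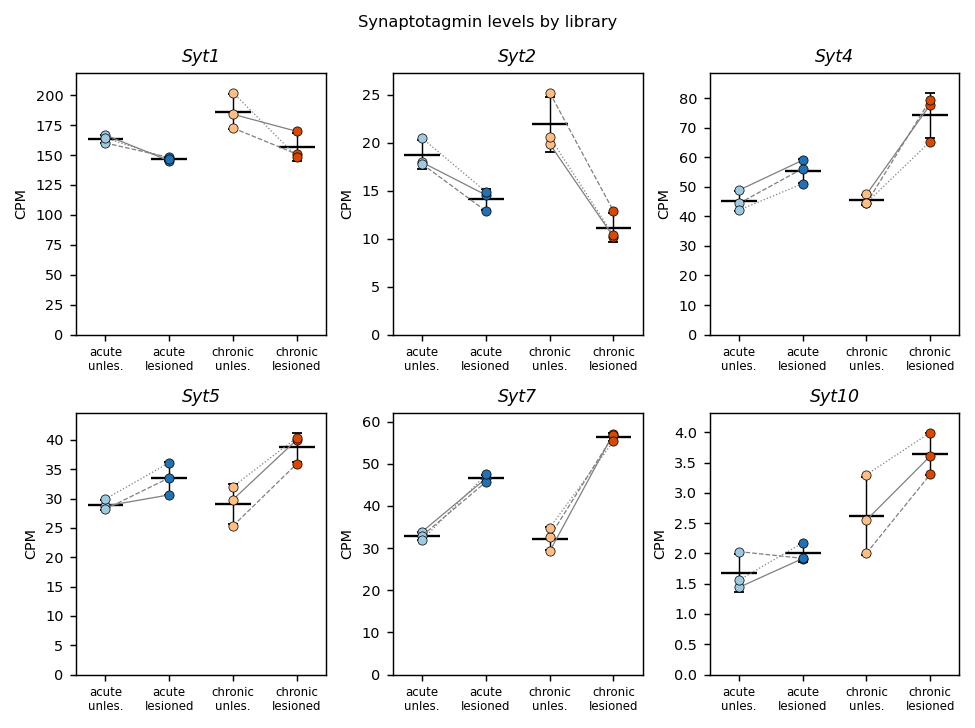
Levels of 6 synaptotagmin genes in CPM in each of the 12 libraries, with lines joining libraries of equal number within a treatment and bars for the mean and SD of 3 libraries. Syt7 and Syt4 are higher and Syt2 lower in the lesioned striatum with both treatments, and Syt10 is highest in the chronic lesioned libraries.

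Doc2b, a high-affinity calcium sensor with tandem C2 domains linked to spontaneous release, changed sign between the treatments. It fell from 29.4, 27.5 and 30.9 CPM in the acute unlesioned to 22.4, 23.4 and 23.6 CPM in the acute lesioned libraries (log2 fold change -0.33, standard error 0.062, edgeR adjusted p = 0.0047). It rose from 26.9, 25.7 and 28.3 CPM to 39.01, 35.7 and 42.99 CPM on the chronic sides (log2 fold change 0.54, standard error 0.086, edgeR adjusted p = 0.00241). Neither pair of groups overlapped, the difference of the effects was 0.88 (standard error 0.10, edgeR adjusted p = 0.00016), and all 3 calls held in every fit without 1 library. Its paralogue Doc2a stayed at 2.10 to 3.02 CPM and was not called. Doc2a shares 34.1% of its 36-base words with the overlapping opposite-strand gene Ino80e, so its level is uncertain.

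Among vesicle membrane proteins, Syp rose most after chronic L-DOPA. It encodes synaptophysin, an abundant vesicle protein that binds synaptobrevin. Syp, at chrX:7215597-7230382 of mm9, was 114, 111 and 118 CPM in the acute unlesioned and 129, 132 and 137 CPM in the acute lesioned libraries (log2 fold change 0.22, standard error 0.058, edgeR adjusted p = 0.0262). The chronic unlesioned libraries had 125, 142 and 135 CPM and the chronic lesioned 231, 232 and 244 CPM (log2 fold change 0.82, standard error 0.078, edgeR adjusted p = 7.07e-05), 1.76 times the unlesioned mean. The chronic lesioned libraries stood far above all 9 others, and the lesion effects differed by 0.60 (standard error 0.088, edgeR adjusted p = 0.000885). The small acute rise was lost without acute unlesioned number 1 or 2 or acute lesioned number 2 or 3 (0.20 to 0.24), and the chronic rise in no such fit (0.78 to 0.86). An opposite-strand lincRNA, Gm14703, shares up to 875 bases of exon with Syp and had a chronic lesion effect of 0.79, and whether the counting used the strand is not stated in the sources used here.

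Of the synapsins, Syn2 and Syn3 had calls and Syn1 had none, and differences between members were not tested. Syn2 was 50.1, 48.4 and 53.8 CPM in the chronic unlesioned and 65.6, 63.6 and 65.9 CPM in the chronic lesioned libraries (log2 fold change 0.36, standard error 0.076, edgeR adjusted p = 0.0116). On the acute sides it was 50.8, 46.6 and 48.04 and 48.8, 49.2 and 50.5 CPM. The chronic lesioned libraries lay above the rest, and Syn2 exceeded the acute lesioned level as well (log2 fold change 0.39, standard error 0.068, edgeR adjusted p = 0.00252). Syn1 ranged from 44.5 to 55.6 CPM and was not called, with a chronic lesion effect of 0.18 (edgeR adjusted p = 0.186). Within the chronic pairs of equal number its log2 ratios were 0.27, 0.23 and 0.04, all higher on the lesioned side.

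Syn3 was 10.49, 10.1 and 9.87 CPM and 12.8, 11.7 and 12.1 CPM on the acute unlesioned and lesioned sides (log2 fold change 0.28, standard error 0.062, edgeR adjusted p = 0.0134), and 10.05, 13.05 and 12.3 and 12.8, 12.97 and 11.1 CPM on the chronic sides, which overlapped. The acute call was lost without acute unlesioned number 2 or 3 (0.24 to 0.30). It belongs to 1 transcript. That transcript, of 6 exons, shares up to 1733 bases of exon with Timp3 on the opposite strand, a gene with a log2 fold change of 0.26 in the same comparison. The longer Syn3 transcript of 14 exons had a log2 fold change of -0.07 and was not called, and the sum over all Syn3 transcripts was not called either.

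Calls differed among the SV2 glycoproteins, which act in vesicle priming, and differences between members were not tested. Sv2b was 38.6, 35.1 and 34.6 CPM in the acute unlesioned and 27.1, 25.8 and 24.5 CPM in the acute lesioned libraries (log2 fold change -0.48, standard error 0.066, edgeR adjusted p = 0.000648). On the chronic sides it was 34.8, 30.9 and 43.1 and 30.7, 24.3 and 27.6 CPM, which only just did not overlap, at a log2 fold change of -0.40 (edgeR adjusted p = 0.0692, and 0.00523 with the block). Sv2b is the SV2 form of many glutamatergic neurons. With the mean of 11 cortical markers as a covariate the acute effect on Sv2b was -0.37 and called, and the chronic effect went from -0.40 to -0.18 and was not called. For Stx1a the same covariate gave -0.33, called, after acute and -0.19, not called, after chronic L-DOPA. Without chronic unlesioned number 3, which had the highest Slc17a7, the chronic effect was -0.26 on Sv2b and -0.19 on Stx1a, neither called, and without number 2 of both chronic sides it was -0.41 and -0.52, both called. The part of cortical cells in these values was not tested.

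Sv2c, the form enriched in basal ganglia, was called higher on the lesioned side after acute and not after chronic L-DOPA. It was 15.8, 17.5 and 18.3 CPM and 21.2, 22.03 and 18.5 CPM on the acute sides (log2 fold change 0.27, standard error 0.077, edgeR adjusted p = 0.039), a call kept only without acute lesioned number 3 among the 6 fits without 1 library (0.21 to 0.34). That call was also lost with counts summed per gene, with all 12 libraries in the fit and with either marker covariate. Sv2c was 20.5, 17.5 and 25.1 and 31.3, 27.3 and 26 CPM on the chronic sides, where the edgeR adjusted p was 0.0548 and, with the block, 0.0099. Chronic exceeded acute lesioned striatum (log2 fold change 0.45, standard error 0.093, edgeR adjusted p = 0.00636). The broadly expressed Sv2a was 67.8, 70.3 and 67.8 CPM in the acute lesioned and 84.2, 83.9 and 82.4 CPM in the chronic lesioned libraries (log2 fold change 0.28, standard error 0.068, edgeR adjusted p = 0.0132, a call lost without acute lesioned number 1), and neither lesion effect was called, with 69.1, 69.5 and 73.8 CPM in the acute and 72.9, 83.5 and 73.8 CPM in the chronic unlesioned libraries.

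Of the synaptogyrins, relatives of synaptophysin, Syngr3 was 28.99, 29.4 and 32.8 CPM in the acute unlesioned and 22.7, 25.5 and 25.8 CPM in the acute lesioned libraries (log2 fold change -0.29, standard error 0.071, edgeR adjusted p = 0.0196). The chronic values of 22.99, 28.6 and 25.8 and 23.7, 26.9 and 28.6 CPM overlapped. The acute call was lost without acute unlesioned number 3 or acute lesioned number 1 (-0.33 to -0.23). Syngr1 ranged from 64.7 to 86.1 CPM and was not called.

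At the active zone, Erc2, which encodes the scaffold protein ELKS2 (CAST), was 27.1, 29.8 and 28.5 CPM in the acute unlesioned and 19.6, 23.2 and 19.99 CPM in the acute lesioned libraries (log2 fold change -0.43, standard error 0.071, edgeR adjusted p = 0.00217). The chronic unlesioned libraries had 37.4, 27.8 and 40.7 CPM and the chronic lesioned 53.01, 39.7 and 50.7 CPM, which overlapped. That effect was 0.44 (standard error 0.15, edgeR adjusted p = 0.0818), and with the block 0.44 (edgeR adjusted p = 0.000443). DESeq2 called it as well (adjusted p = 0.0173), and each lesioned library exceeded the unlesioned one of its number. The chronic lesioned mean was 2.28 times the acute lesioned one (log2 fold change 1.19, standard error 0.11, edgeR adjusted p = 5.45e-05), the largest such rise among the 37, and the lesion effects differed by 0.87 (standard error 0.18, edgeR adjusted p = 0.0111).

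The 5 other active zone genes were not called. Rab3a, the vesicle GTPase that binds RIM, ranged from 70.1 to 84.8 CPM with log2 lesion effects of -0.04 and -0.07. Rims1 had -0.13 and -0.23, and the block called the chronic one lower (edgeR adjusted p = 0.0401). Without acute lesioned number 1 the acute effects were -0.25 on Rims1 and -0.27 on Bsn, both called. Unc13a, the priming factor Munc13-1, was 32.99, 30.9 and 46.9 CPM in the chronic unlesioned and 44.8, 42.2 and 54.4 CPM in the chronic lesioned libraries, with a log2 effect of 0.35 (edgeR adjusted p = 0.168, and 0.00215 with the block). Without chronic unlesioned number 3 the effect on Unc13a was 0.56 and called (edgeR adjusted p = 0.0222).

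The large scaffolds Bsn (Bassoon) and Pclo (Piccolo) were not called. Chronic unlesioned number 3 had the highest level of both, with 43.2, 43.9 and 63.6 CPM of Bsn and 20.2, 17.6 and 31.8 CPM of Pclo over the chronic unlesioned libraries. The same library had the highest Slc17a7, Stx1a and Sv2b levels, and without it the chronic lesion effect went from -0.30 to -0.10 in Bsn and from -0.26 to 0.03 in Pclo. The lesioned chronic values were 41.98, 38.1 and 42.01 CPM of Bsn and 21.6, 18.9 and 17.7 CPM of Pclo, and the block called the fall of Bsn (edgeR adjusted p = 0.0443).

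Amph, an adaptor for vesicle retrieval by endocytosis, was 20.3, 19.8 and 20.5 CPM and 19.5, 19.8 and 19.1 CPM on the acute and 22.95, 21.9 and 24.3 CPM and 28.3, 23.2 and 25.5 CPM on the chronic sides. Neither lesion effect was called. The chronic lesioned libraries exceeded the acute lesioned ones (log2 fold change 0.40, standard error 0.082, edgeR adjusted p = 0.0067).

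**Figure D4:**
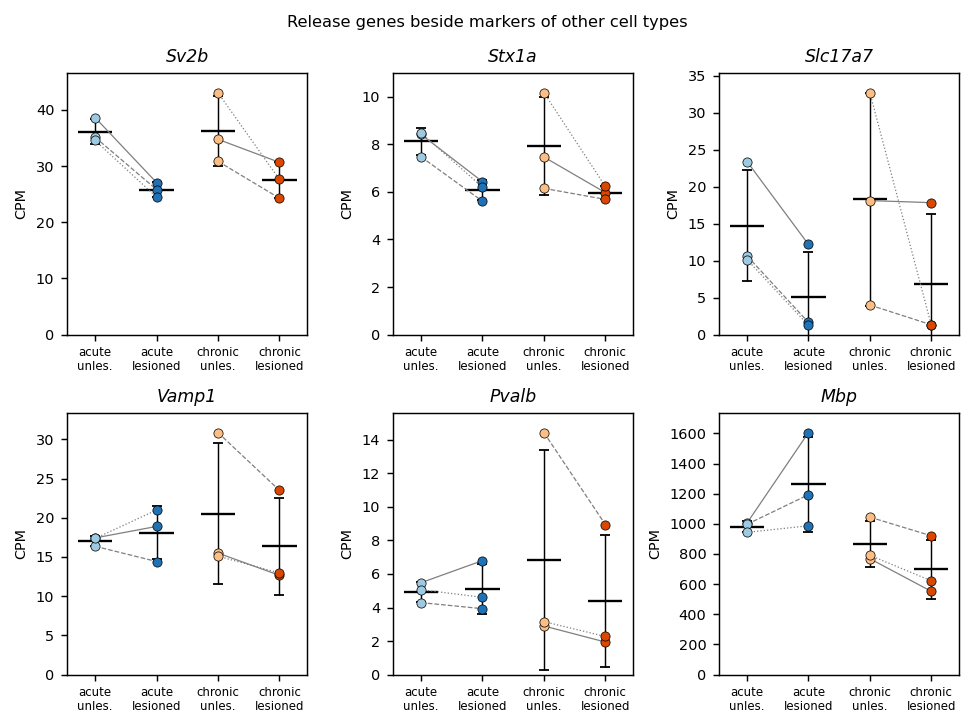
Levels in CPM of Sv2b, Stx1a and Vamp1 beside Slc17a7 (cortical neurons), Pvalb (fast-spiking interneurons) and Mbp (oligodendrocytes) in each of the 12 libraries, with lines joining libraries of equal number and bars for the mean and SD of 3. Slc17a7 is high in number 1 of both lesioned groups, where Sv2b is also the highest of its 3 libraries, by less, and Vamp1 and Pvalb are both highest in number 2 of the chronic groups.

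The test of whether the lesion effect differed between chronic and acute L-DOPA called 6 genes, all with a larger effect after chronic treatment, 16.2% of the 37 beside 4.52% of all transcripts tested and 7.31% of genes with at least 1 CPM (5.24% larger, 2.07% smaller). They were Syt6, Doc2b, Erc2, Syp, Snap25 at 0.34 (standard error 0.089, edgeR adjusted p = 0.0442) and Syn2 at 0.32 (standard error 0.087, edgeR adjusted p = 0.0466). The effects of Syt6, Doc2b, Erc2 and Syp differed by at least 1.5 fold and were called in each of the 12 fits without 1 library. Those of Snap25 (0.28 to 0.38) and Syn2 (0.29 to 0.37) were each lost in 10 of these 12 and kept only without chronic lesioned number 2 or, for Snap25, chronic unlesioned number 1 and, for Syn2, chronic unlesioned number 3. The median difference over the 37 genes was 0.15 on the log2 scale, against 0.00 over genes with at least 1 CPM. With the block, which called 12.1% of all transcripts, 11 genes had a larger and 3 a smaller effect after chronic treatment, the added ones being Syngr3, Syt4, Cplx2, Syt7 and Unc13a above and Vamp1, Syt2 and Sncb below.

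**Figure D5:**
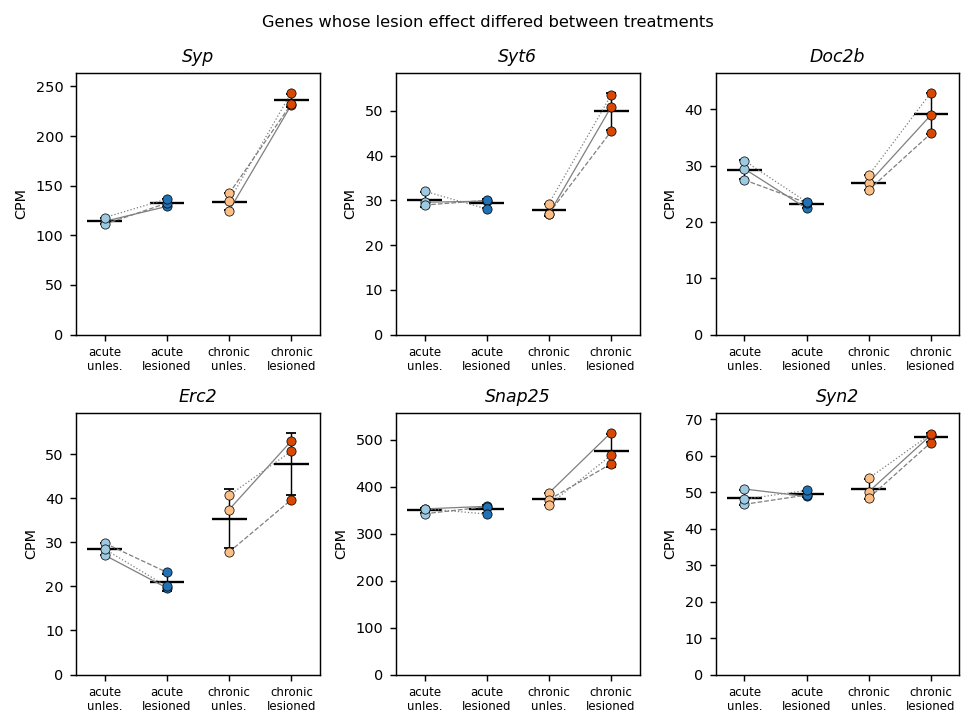
Levels in CPM, in each of the 12 libraries, of the 6 genes whose lesion effect differed between the treatments, with lines joining libraries of equal number and bars for the mean and SD of 3. In the chronic lesioned libraries Syp, Syt6, Doc2b, Snap25 and Syn2 stand above all other libraries, and Doc2b and Erc2 are lower on the lesioned side after acute L-DOPA.

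Oligodendrocyte markers moved with the contrast of the treatments on the lesioned side. The summed level of 7 markers was 2161 to 3574 CPM in the acute lesioned and 1200 to 2132 CPM in the chronic lesioned libraries, and all 7 were called lower after chronic L-DOPA, with Mbp at 1606, 1193 and 987 and 552, 920.4 and 622 CPM. So were 4 of 6 microglial and 3 of 6 astrocyte markers, while of 10 medium spiny neuron markers 2 were called higher and 2 lower. With the mean of the oligodendrocyte markers as a covariate, an alternative chosen after seeing the data, 3.84% of all transcripts and 6 of the 15 rises were called (Erc2, Syp, Syt6, Syt10, Doc2b and Syt4), with Erc2 going from 1.19 to 0.90 and Syp from 0.83 to 0.79 on the log2 scale, and the fall of Syt2 was not. Several of the 9 lost calls had log2 fold changes close to those without the covariate, with larger standard errors, as in Sv2c (0.45 and 0.45), Sv2a (0.28 and 0.29), Syt7 (0.28 and 0.28), Syn2 (0.39 and 0.35), Nsf (0.38 and 0.34) and Snap25 (0.44 and 0.36). Those of Vamp2 (0.31 and 0.19), Amph (0.40 and 0.25) and Cplx2 (0.38 and 0.28) were smaller with it. The part of these cells in the contrast was not tested. None of the 7 was called in the chronic lesion effect, where the same covariate gave 12 higher and 6 lower (17.2% of all transcripts). In each chronic pair of equal number the oligodendrocyte sum was lower on the lesioned side, as was the cortical sum. The sum of 11 cortical markers was 9.48 to 30.9 CPM in the chronic lesioned and 13.2 to 51.1 CPM in the chronic unlesioned libraries, and with these as a covariate 11 genes were higher and 2 lower (7.8% of all transcripts). Without number 2 of both chronic sides, 11 were higher and 5 lower (13.1% of all transcripts).

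Of 59 other genes of the release machinery, 58 were tested. After acute L-DOPA 2 were higher and 9 lower in the lesioned striatum, and after chronic L-DOPA 15 were higher and 4 lower, beside 19.9% and 17.3% of genes with at least 1 CPM called in the 2 comparisons. The 2 acute rises were Syngr2 (0.33 on the log2 scale) and Bin1 (0.21). The largest acute falls were Unc13c (-0.73), Rims2 (-0.44) and Syt9 (-0.39), a priming factor, a scaffold and a calcium sensor. Synpr, the synaptophysin relative synaptoporin, rose most after chronic L-DOPA, from 29.8 ± 4.4 to 67.5 ± 13 CPM (SD, n = 3, log2 fold change 1.18), followed by Doc2g (0.76) and the vesicle GTPase gene Rab3c (0.75). Unc13c (-0.83), Syt9 (-0.58) and Prrt2 (-0.44) fell most. Chronic exceeded acute lesioned striatum in 20 of the 58 and lay under it in 5 (31.5% of genes with at least 1 CPM were called), none was called between the unlesioned sides, and 11 had a larger lesion effect after chronic treatment while none had a smaller one (7.31% of such genes). Synpr (1.24), Rims4 (1.01) and Rph3a (0.78) led those 11.

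The patterns most like those of the 2 genes with the smallest adjusted p in a lesion comparison, by Pearson's r of log2 CPM over the 12 libraries among 12795 genes, were as follows. Syp was most like Gm14703 (r = 0.993), with which it overlaps, then Gpr153 (0.989) and Mllt11 (0.986). Syt6 was most like Mmd (0.992), Myo3b (0.987) and Pmepa1 (0.987). The libraries share their groups and these values are a description.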

How the data were processed

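RNA-seq was done on 12 striatal libraries, 3 per group, with groups and replicate numbers from the labels. The authors made TruSeq libraries, mapped the reads to mm9 with Genomatix software and deposited raw read counts per transcript, which were used here. Strand use and the treatment of reads with several positions are not given in the sources used here. Besides Syp, Syn3 and Doc2a, exons on the opposite strand overlap Bsn (up to 654 bases), Syt7 (384), Syt4 (282) and Doc2b (241). Sv2b, Rab3a and Syn1 have overlaps of at most 43 bases. The part of these overlaps in the counts was not tested. P-values and fold changes of the authors' own comparisons, deposited in separate tables, were not used, and 68 further columns of per-sample values were left out. Of the 189660 transcripts, 296 name no gene (0.0485% of counts) and stayed out of totals and tests.

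Counts of all transcripts were tested with edgeR 4.0.16 in R 4.3.3, with limma 3.58.1, by filterByExpr, TMM, glmQLFit and glmQLFTest, on 6 libraries for a comparison of 2 groups and on all 12 for the difference of lesion effects. A call is an adjusted p (Benjamini-Hochberg over every transcript tested) under 0.05. Python 3.11.15 with numpy 2.4.6 and pandas 2.3.3 made the tables, and matplotlib 3.10.9 the plots. The transcript with the highest mean CPM stands for its gene. P-values measure the spread between these libraries. With 3 against 3 libraries an exact permutation test cannot go below 0.10 and was not run. On simulated counts for the acute comparison (129674 transcripts), 76 of 100 transcripts changed by 0.585 and 100 of 100 changed by 1 on the log2 scale were recovered, with 35 false calls, and 18 calls were made with nothing changed. The false calls were a larger share of the calls than the threshold of 0.05 names. Transcripts were simulated independently, unlike the overlapping transcripts of a gene, so the error rate in the data is not known from this.

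Members and gene lists were chosen with earlier results of these data known. Values in every library are given for the 20 called members with the smallest adjusted p and for any member with an absolute log2 fold change of at least 0.585. Of the 59 other release genes the 3 largest rises and falls are named.

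Whether replicate numbers pair the libraries was checked by correlating, over 12795 genes, the deviations of libraries from their group means. Same-numbered libraries of the 2 sides gave r = 0.478, 0.490 and 0.384 after acute and 0.513, 0.573 and 0.160 after chronic L-DOPA, all above the limit of 0.1, so the numbers were taken to pair the sides, as in a study where each mouse is its own control. Over all 20664 genes tested the acute value of number 3 was 0.002, against 0.130 for acute lesioned number 3 with unlesioned number 2. Over the 12795 genes, chronic lesioned number 1 with unlesioned number 3 gave 0.153. The check was therefore less clear for number 3 than for numbers 1 and 2. Across treatments the numbers do not pair. A block for the number, DESeq2 1.42.0, its size factors, other filters, features and thresholds, marker covariates and fits without 1 library served as alternatives.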

Additional observations from a re-analysis of the deposited data

Results flagged for a closer look

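The lesion effect after chronic L-DOPA differed from that after acute L-DOPA for 6 of the 37 genes, tested as an interaction in edgeR on 12 libraries. This is 16.2% of the 37, beside 7.31% of genes with at least 1 CPM. Given as the chronic minus the acute effect on the log2 scale, the differences were 0.88 for Syt6, 0.88 for Doc2b, 0.87 for Erc2, 0.60 for Syp, 0.34 for Snap25 and 0.32 for Syn2. In Doc2b the acute effect was a fall and the chronic effect a rise, both called. In Erc2 the acute fall was called, and the chronic effect was called, as a rise, in alternatives only, among them the replicate number as a block and DESeq2. In Syp both effects were rises. Syt6, Snap25 and Syn2 had a called chronic effect and no called acute effect. The calls of Snap25 and Syn2 on the difference were each lost in 10 of the 12 fits without 1 library.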

How the results depend on the processing

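Of the 45 called values of single genes, 23 stayed called at an adjusted p under 0.05 in every alternative tried, and none reversed. Over the fits without 1 library, acute L-DOPA had 1 to 5 genes higher and 6 to 9 lower in the lesioned striatum and chronic L-DOPA 6 to 11 and 1 to 3. In the same fits chronic against acute L-DOPA gave 13 to 16 higher and 0 to 4 lower in the lesioned and 0 to 6 and 0 to 1 in the unlesioned striatum, and the difference of lesion effects 4 to 8 and 0 to 1. The 5 acute rises became 3 with counts summed per gene, with all 12 libraries in the fit and with the cortical covariate, and 1 at an adjusted p under 0.01, where the 10 chronic rises became 5. The 7 acute falls stayed between 5 and 10 in all alternatives, with 5 when all 12 libraries were fitted. The 1 chronic fall became 3 with DESeq2, 4 without a filter on low counts, 5 with all 12 libraries, 2 with a GC content and length trend removed, 2 with the cortical covariate, 6 with the oligodendrocyte covariate and 5 without the chronic libraries numbered 2. Between treatments in the lesioned striatum, the oligodendrocyte covariate left 6 of 15 rises, several of the lost ones with log2 fold changes close to their former values and larger standard errors, and the 1 fall became 0 with it, with the sum over transcripts, with the replicate block, with block and trend removed together and at 0.01. In the unlesioned striatum, where none was called, DESeq2 gave 2 rises and 1 fall, and no filter, all 12 libraries, the trend and the oligodendrocyte covariate gave 1 rise each. The 6 larger lesion effects became 10 with DESeq2, 10 with the trend removed and 3 at 0.01. In addition, 1 smaller effect was called with DESeq2, its size factors, no filter or a single transcript per gene (with or without known GC content). The cortical covariate and the fit without the chronic libraries numbered 2 also gave 1. For most of these alternatives, among them DESeq2, no filter, all 12 libraries and the trend, the share of all transcripts called is not given. Their counts therefore cannot separate a change in these genes from a change in calls across all transcripts. The causes were not tested.

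With the replicate number as a block the acute counts were 6 higher and 9 lower and the chronic counts 14 and 9, with 8 lower when the trend was removed as well. The block gave 11 larger and 3 smaller lesion effects, the same with the trend, and called 1 fall in the unlesioned striatum, Unc13a, with and without the trend. It lost the fall of Syt2 between treatments, where the numbers do not pair libraries, and no other call. The covariates, the fit without the chronic libraries numbered 2 and the fit on genes with known GC content alone were chosen after seeing the data, except that of the cortical markers. Depth limits the values of Cplx3, with 13 counts in its lowest library.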
